A study of Mus musculus with 19 samples.

Results

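The 38 genes described here are immediate-early and activity-induced genes: transcription factors of the AP-1, EGR, NR4A and KLF families, the neuronal effectors Arc and Npas4, MAP kinase phosphatases and a set of inducible kinases, growth arrest genes and secreted or enzymatic products. They were taken by symbol from a list. All 38 were present among the 14459 genes of the table (37 under the listed symbol as a current symbol, and Cyr61 as a synonym of Ccn1), and all 38 passed the filter on low counts in each test.

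Immediate-early genes are transcribed within minutes of a stimulus, without a need for new protein synthesis, through transcription factors such as CREB, SRF with its ternary complex partners, and MEF2 that are already present in the cell. In neurons, calcium entry and MAP kinase signalling during activity lead to this transcription, and the mRNAs are short-lived, often through AU-rich elements bound by proteins of the ZFP36 and ELAV families. In hippocampus they serve as markers of recent activity and include genes needed for lasting synaptic change, but many are also induced by growth factors, stress and injury in glia, vessels and other cells.

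The study compared Fmr1 KO mice, which lack FMRP, an RNA-binding protein that represses translation of many neuronal mRNAs, with wild-type (WT) littermates. Per the labels, the animals were males aged 28 to 35 days on a C57BL/6 background (given as C57BL/6N in the description of the series), perfused under ketamine and xylazine. Transverse hippocampal slices of 400 µm rested at 30 °C for 3 to 4 h, were treated with cycloheximide at 100 µg/ml, which arrests ribosomes on mRNA, and were frozen. Each biological replicate pooled 8 to 10 slices from 6 to 8 mice of a genotype. The protocol states that CA3 was trimmed away, whereas the source name gives hippocampal-cortical tissue. One lysate gave both cytoplasmic RNA for RNA-seq and ribosome-protected fragments (footprints) from the monosome fractions, and 3 KO and 4 WT libraries of each assay were analysed. The remaining 5 of the 19 labelled samples were not analysed here. Neither uncut tissue nor stimulated slices were among the libraries used, so the levels below are those of rested slices. In bulk libraries such as these, fewer cells of a type and less RNA per cell cannot be told apart. The p-values rest on the spread between pools of slices in the deposited values. As the part on processing describes, they may be too small.

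Estimated counts summed to 4.97 to 9.96 M per RNA library and 15.57 to 22.71 M per footprint library. The lowest mean of a member in any group was 6.66 TPM (a level relative to transcript length and library size), above a floor near 1 TPM that the deposited values show. Fmr1 itself had log2 fold changes (KO over WT) of -2.01 ± 0.11 (SE) in RNA and -3.21 ± 0.06 in footprints, with no overlap between genotypes. Markers of neurons were high in every library, with summed footprint levels of 10536 to 10734 TPM in KO and 10721 to 10957 TPM in WT. Summed microglia markers were lower in KO, at 748 to 764 TPM against 871 to 902 TPM in RNA and 464 to 506 TPM against 568 to 582 TPM in footprints, and 9 of 9 fell in footprints and 6 of 9 in RNA. Summed CA1 markers were also lower in KO RNA (292 to 322 TPM against 346 to 389 TPM; 1 of 4 fell, Wfs1) and summed thalamic markers higher (75.6 to 89 TPM against 41.3 to 64.2 TPM; 2 of 4 rose, Ramp3 and Prkcd). Dentate granule sums were lower in KO RNA (127 to 138 TPM against 142 to 156 TPM) and footprints (145 to 157 TPM against 160 to 178 TPM). Of their 3 markers C1ql2 fell in both assays. Oligodendrocyte precursor sums were lower in KO RNA (213 to 244 TPM against 248 to 292 TPM), where 2 of 4 markers fell, Cspg4 and Olig2. Fibroblast sums were lower there too (60.8 to 66.2 TPM against 69.7 to 85.1 TPM), but only 1 of 5 markers fell, Dcn. Lum went the other way without passing, with every KO library above every WT library (3.99 to 4.32 TPM against 2.32 to 3.95 TPM). In footprints 2 of 4 CA1 markers fell and 3 of 4 thalamic markers rose. Summed cortical markers were higher in KO footprints (117 to 135 TPM against 107 to 116 TPM).

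Promoter sequences are shown for 4 members that passed a test or mark neuronal activity, to display the motifs counted below. The windows run from 250 bases before to 50 bases after a transcript start (RefSeq, GRCm38.p6) and are written 5′ to 3′ along the gene's strand. Capitals mark exact matches to the motifs searched on both strands: the CRE TGACGTCA bound by CREB, its half-site TGACG (which every CRE also contains), the AP-1 site TGANTCA, the EGR site GCGGGGGCG, the CArG box bound by SRF, and TATAAA. Fos (chr12:85473640-85473939, plus strand) holds 2 half-sites and a TATA box. Dusp1 (chr17:26508423-26508722, minus strand) holds a full CRE and a further half-site. Ptgs2 (chr1:150099781-150100080, plus strand) holds 1 half-site, read from the opposite strand, downstream of the start. Dusp5 (chr19:53528895-53529194, plus strand) holds 2 adjoining CArG boxes and 1 half-site on the opposite strand.
Fos: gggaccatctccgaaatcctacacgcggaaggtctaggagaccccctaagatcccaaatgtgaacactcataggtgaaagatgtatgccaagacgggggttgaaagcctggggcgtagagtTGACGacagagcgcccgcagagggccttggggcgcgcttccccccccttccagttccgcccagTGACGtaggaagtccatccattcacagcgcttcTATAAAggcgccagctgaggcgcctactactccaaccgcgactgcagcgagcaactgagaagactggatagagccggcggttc
Dusp1: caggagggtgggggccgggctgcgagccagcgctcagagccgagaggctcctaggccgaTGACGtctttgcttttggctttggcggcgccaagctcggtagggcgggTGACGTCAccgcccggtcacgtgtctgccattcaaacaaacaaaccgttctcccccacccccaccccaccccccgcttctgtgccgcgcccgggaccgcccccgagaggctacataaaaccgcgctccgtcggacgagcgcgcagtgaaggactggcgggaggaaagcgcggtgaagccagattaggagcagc
Ptgs2: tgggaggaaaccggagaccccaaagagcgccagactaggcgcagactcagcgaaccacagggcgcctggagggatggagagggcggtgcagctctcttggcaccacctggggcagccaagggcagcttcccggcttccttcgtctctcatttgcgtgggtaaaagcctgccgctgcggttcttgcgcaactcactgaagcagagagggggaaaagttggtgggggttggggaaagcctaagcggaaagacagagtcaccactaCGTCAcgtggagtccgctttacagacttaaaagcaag
Dusp5: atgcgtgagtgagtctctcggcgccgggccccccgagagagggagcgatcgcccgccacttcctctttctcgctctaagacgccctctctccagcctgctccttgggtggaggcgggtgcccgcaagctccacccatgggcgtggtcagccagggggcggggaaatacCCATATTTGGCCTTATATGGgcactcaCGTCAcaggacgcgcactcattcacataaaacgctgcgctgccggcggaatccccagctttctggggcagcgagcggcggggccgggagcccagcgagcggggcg

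Of the 38 members, 31 had a promoter window in the RefSeq table. The CRE half-site occurred in 22 of these 31 genes (71%), against 33.9% of the 10898 genes of the count table with a window and 23% of all 27025 genes. Full CREs occurred in 4 members, Btg2, Dusp1, Maff and Plk2 (12.9%, against 3.49% of the table's genes). EGR sites occurred in 5 members, Fosb, Fosl2, Klf2, Klf4 and Nr4a1 (16.1%, against 6.37%). CArG boxes were found in Dusp5 and Egr2 (6.45%, against 1.58%). TATAAA was found, at any position and on either strand, in Cyr61, Fos, Gadd45b, Gadd45g, Junb and Nr4a2 (19.4%, against 8.94%). The Junb match lay at the transcript start and the Nr4a2 match at -164 to -159 on the opposite strand. AP-1 sites were found in 0 of 31 (against 6.34%). Member windows were richer in G and C than those of the table's genes (63.7% against 60.4%). These matches describe letters in short windows and say nothing about binding in the slices.

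Most members were well expressed in the rested WT slices. The median member level was 62.8 TPM in RNA and 80.6 TPM in footprints, against 22.1 and 15.4 TPM over all genes, and 10 members in RNA and 13 in footprints stood at or above the 90th percentile. Jund, an AP-1 subunit expressed without stimulation in many tissues, was highest in WT RNA at 748 ± 25.4 TPM (SD, n = 4), followed by Fos at 508 ± 11.6, Junb at 363 ± 14.8 and Jun at 287 ± 22.8 TPM. Egr2 was lowest in RNA at 11.4 ± 1.74 TPM, and Sik1, at 14.8 ± 0.688 TPM, and Klf2, at 18.1 ± 3.43 TPM, came next. In footprints Fos led at 690 ± 33.3 TPM, then Jun at 534 ± 34.8 and Egr1 at 435 ± 20.3 TPM. Klf4, Plk3 and Sik1 had the fewest footprints and did not differ beyond their spread, at 6.95 ± 0.219, 7 ± 0.452 and 7.16 ± 0.267 TPM.

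**Figure D1:**
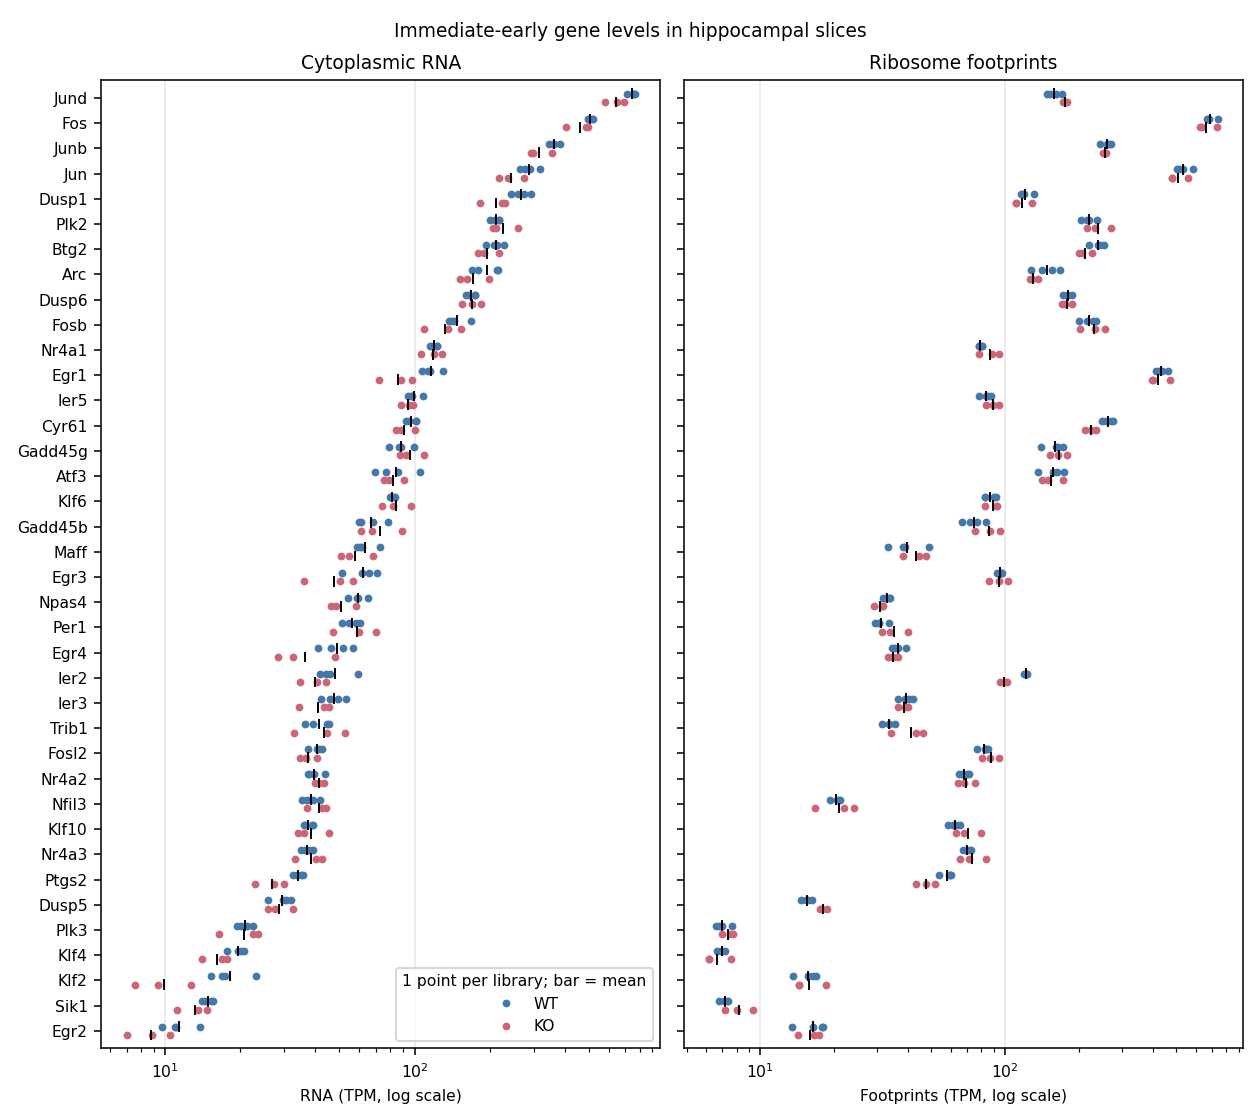
Level of each of the 38 genes in cytoplasmic RNA (left) and ribosome footprints (right), in TPM on a log axis, with 1 point per library (blue WT, 4 libraries; red KO, 3 libraries) and a bar at each group's mean. Genes are ordered by WT RNA, from Jund at 748 TPM to Egr2 at 11.4 TPM, and most KO and WT points of a gene overlap.

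Between genotypes, a few members changed and most did not pass the test. In footprints, edgeR's quasi-likelihood test with Benjamini-Hochberg adjustment over 14438 genes called 4 members lower in KO (Ier2, Ptgs2, Cyr61 and Btg2) and 2 higher (Trib1 and Dusp5), and 32 did not pass at an adjusted p of 0.05. Over all genes the test called 10.4% lower and 8.15% higher, so both counts of members lie near that background. In RNA the test called 5 members lower (Klf2, Egr1, Ptgs2, Dusp1 and Jund) and 0 higher, against 2.77% of all genes lower and 2.11% higher. Unadjusted, 13 members (34.2%) were under 0.05 in RNA and 14 (36.8%) in footprints, against 20.5% and 31.3% of all genes. Ptgs2 was lower in both assays, with 1 member therefore shared by the sets of 6 and 5.

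The direction of the 38 genes was described in each assay by the median, with no test between assays. The median log2 fold change, KO over WT, was 0.01 in footprints and -0.10 in RNA, whereas the medians over all genes were close to 0 in both, as the scaling sets them. RNA values lay below 0 for 26 of 38 members (68.4%, against 51.3% of all genes), and 7 members (18.4%, against 4.69%) were under -0.3. Footprint values lay below 0 for 18 members. Every KO library was below every WT library for 4 members in footprints (15.6% of all genes) and for 5 in RNA (10% of all genes), and above for 2 members in footprints (15.1% of all genes) and for 0 in RNA (9.03% of all genes). The count of members called by the test in RNA rested on single libraries. Without KO RNA library 2 it was 0 (241 genes called in all, 1.73%), and without KO RNA library 3 it was 12 (6.26% of all genes). It was 3 without WT RNA library 1 (2.3% of all genes) or WT RNA library 4 (1.71%). Without KO RNA library 2 the members' RNA median was -0.04, with 22 of 38 below 0. Of the 7 members under -0.3, Klf2 was then at -0.64, Egr1 at -0.32 and Dusp1 at -0.24. The EGR genes then had a median of -0.21, so fewer members stayed under -0.3. Without KO footprint library 1 the members' footprint median was -0.03. The count of members called by the test in footprints was 4 without KO footprint library 1 (12.9% of all genes) or KO footprint library 3 (12.5%). It was 10 without KO footprint library 2 (16.2% of all genes), where Gadd45b, Sik1, Klf10, Nr4a1 and Per1 passed upward.

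**Figure D2:**
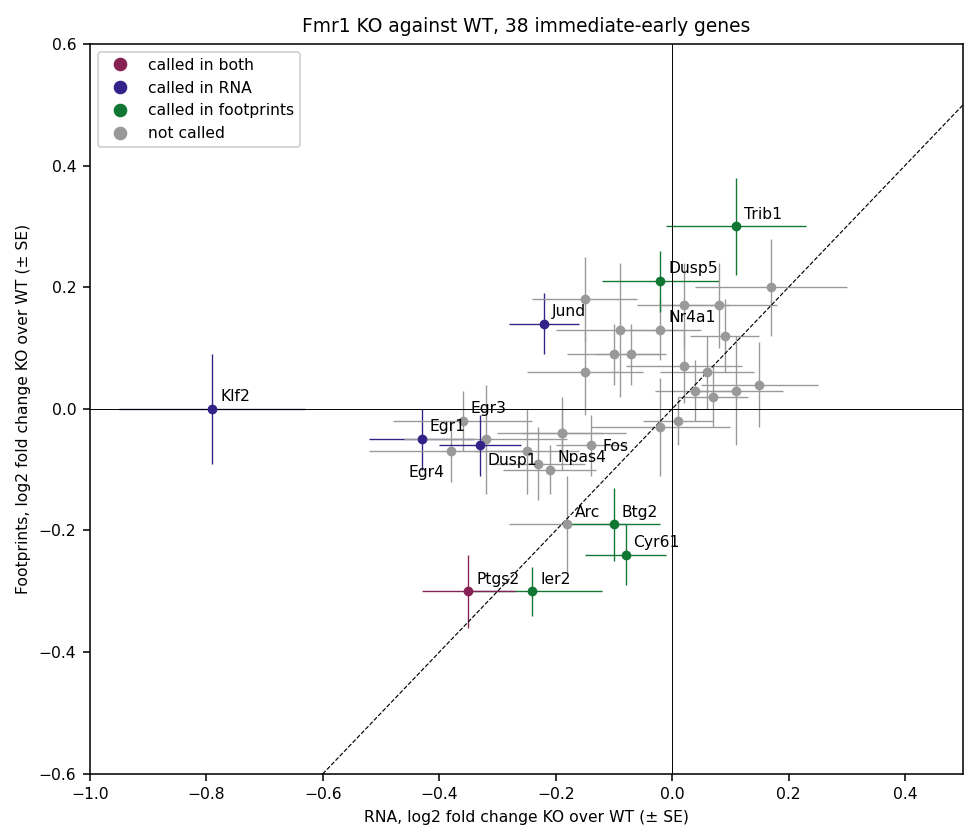
Log2 fold change of KO over WT in RNA (horizontal) against footprints (vertical) for the 38 genes, with bars of 1 SE; colours mark genes with an edgeR adjusted p under 0.05 and the dashed line marks equal change. Klf2 lies far left at -0.79 in RNA and 0.00 in footprints, the EGR genes and Dusp1 lie left near a footprint change of 0, and Ptgs2 and Ier2 lie low at -0.30 in footprints.

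The 9 AP-1 and related bZIP factors, which bind DNA as dimers, had a median log2 fold change of -0.14 in RNA (8 of 9 below 0) and 0.03 in footprints (4 of 9 below 0), and 1 of 9 passed the test in RNA and 0 in footprints. Jund RNA was 754, 766, 711 and 762 TPM in WT and 651, 581 and 695 TPM in KO, so that every KO library was below every WT library. Its log2 fold change was -0.22 ± 0.06 (adjusted p = 0.0470, edgeR), while its footprints were 153, 171, 161 and 148 TPM in WT and 176, 172 and 179 TPM in KO, a log2 fold change of 0.14 ± 0.05 (adjusted p = 0.0704, edgeR) with all KO libraries above all WT libraries. Jund footprints passed upward by DESeq2, with genes of at least 5 TPM and without WT footprint library 2 (lowest adjusted p = 0.0157). The RNA call of Jund was the weakest of the set, being lost in 12 of 18 alternatives, among them the omission of any library except KO RNA library 3 (adjusted p up to 0.189).

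Fos, the partner of JUN proteins and the usual marker of activated neurons, had 501, 518, 495 and 517 TPM of RNA in WT and 498, 404 and 486 TPM in KO. KO library 2 stood well below the rest, and KO library 1 lay inside the WT range (log2 fold change -0.14 ± 0.06, adjusted p = 0.232, edgeR). Fos footprints were 671, 668, 739 and 681 TPM in WT and 732, 623 and 638 TPM in KO, an overlapping pair of groups (-0.06 ± 0.05, adjusted p = 0.467, edgeR). Fosb, whose splice form deltaFosB is long-lived, had 144, 169, 140 and 138 TPM of RNA in WT and 136, 109 and 153 TPM in KO (-0.15 ± 0.10, adjusted p = 0.449, edgeR). Fosb footprints, at 201 to 234 TPM in WT and 202 to 255 TPM in KO, also overlapped (0.06 ± 0.07, adjusted p = 0.646, edgeR). Junb RNA was 382, 363, 346 and 360 TPM in WT and 299, 294 and 356 TPM in KO, where KO library 3 lay inside the WT range (-0.19 ± 0.07, adjusted p = 0.114, edgeR). Junb footprints were nearly level, at 260 ± 10.7 TPM (SD, n = 4) in WT and 255 ± 3.2 TPM (n = 3) in KO (-0.04 ± 0.04, adjusted p = 0.549, edgeR).

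The other bZIP members overlapped between genotypes in both assays. Jun, the main partner of FOS, was at -0.23 ± 0.08 in RNA (adjusted p = 0.0977, edgeR) and -0.09 ± 0.06 in footprints. The FOS relative Fosl2, the stress factor Atf3 and the small MAF factor Maff had RNA values of -0.10, -0.02 and -0.09 and footprint values of 0.09, -0.03 and 0.13. Nfil3, a repressor of clock output, was the exception in sign, at 0.11 in RNA and 0.03 in footprints.

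The 4 EGR zinc finger factors, which bind GC-rich sites in many activity-regulated genes, had log2 fold changes of -0.43 to -0.32 in RNA and of -0.07 to -0.02 in footprints. Egr1 passed in RNA, and 4 of 4 were under 0.05 unadjusted. Egr1 RNA (chr18:34861207-34864956) was 113, 130, 107 and 115 TPM in WT and 88.1, 72.1 and 97.3 TPM in KO, with no overlap. The log2 fold change was -0.43 ± 0.09 (adjusted p = 0.0164, edgeR), and -0.32 without KO RNA library 2 (adjusted p = 0.0587). Egr1 footprints were 415, 439, 462 and 424 TPM in WT and 471, 400 and 397 TPM in KO, so the KO libraries lay on both sides of the WT range (-0.05 ± 0.05, adjusted p = 0.614, edgeR). The change in footprints relative to RNA was 0.37 ± 0.11 for Egr1 (adjusted p = 0.160, edgeR), which did not pass.

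Egr3, a factor known from muscle spindle formation, had 51.2 to 71 TPM of RNA in WT and 36.1 to 56.8 TPM in KO (-0.36 ± 0.12, adjusted p = 0.108, edgeR). Egr4 had 41 to 56.7 TPM in WT and 28.3 to 48 TPM in KO (-0.38 ± 0.14, adjusted p = 0.146, edgeR), and Egr2, known from hindbrain and Schwann cell development, had 9.67 to 13.8 TPM and 7.01 to 10.5 TPM (-0.32 ± 0.14, adjusted p = 0.205, edgeR). In each of these genes the lowest value was in KO library 2 and the highest KO value, in KO library 3, lay inside the WT range. Without KO RNA library 3 all 4 EGR genes passed (-0.67 to -0.51), and without KO RNA library 2 none did (-0.32 to -0.19), although all 4 stayed below 0 under every alternative run.

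Arc and Npas4 are largely restricted to neurons. Arc encodes a postsynaptic protein that promotes AMPA receptor endocytosis, and its mRNA is a well-studied FMRP target. Arc RNA was 215, 216, 180 and 170 TPM in WT and 152, 162 and 199 TPM in KO (-0.18 ± 0.10, adjusted p = 0.343, edgeR), and its footprints were 155, 168, 141 and 128 TPM in WT and 129, 136 and 126 TPM in KO (-0.19 ± 0.08, adjusted p = 0.116, edgeR). Both assays overlapped between genotypes, with WT libraries 3 and 4 lower than WT libraries 1 and 2. The difference between the assays was -0.02 ± 0.14 (adjusted p = 0.985, edgeR), so footprints per RNA of Arc differed by less than the spread between libraries. Npas4, a factor induced by calcium entry that regulates inhibitory synapses, had 65, 59.4, 58.7 and 54.1 TPM of RNA in WT and 48.5, 46.1 and 58.2 TPM in KO (-0.21 ± 0.08, adjusted p = 0.160, edgeR). Npas4 footprints were 33.8, 33.4, 32.4 and 31.7 TPM in WT and 31.4, 29.2 and 31.6 TPM in KO, every KO value lying just below every WT value (-0.10 ± 0.04, adjusted p = 0.113, edgeR). Arc footprints passed downward without WT footprint library 4 (-0.25, adjusted p = 0.0297), and without KO RNA library 3 the RNA of Arc (-0.31, adjusted p = 0.0469) and of Npas4 (-0.32, adjusted p = 0.0137) did.

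None of the 3 NR4A orphan nuclear receptors passed in RNA or footprints. Nr4a1 RNA was 123, 123, 115 and 118 TPM in WT and 120, 106 and 129 TPM in KO (-0.02 ± 0.07, adjusted p = 0.940, edgeR). Its footprints were 80.2, 77.9, 80.7 and 77.9 TPM in WT and 94.2, 78 and 88.6 TPM in KO (0.13 ± 0.05, adjusted p = 0.105, edgeR), and passed upward without KO footprint library 2 (0.20, adjusted p = 0.00737). Nr4a2, a determinant of dopamine neurons, and Nr4a3 had RNA values of 0.07 and 0.06 and footprint values of 0.02 and 0.06, none of which passed.

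Klf2, a zinc finger factor best known from endothelium and resting lymphocytes, had the largest fall in RNA of the set. Klf2 RNA (chr8:72319062-72321654) was 23.1, 17.3, 15.2 and 16.9 TPM in WT and 9.34, 7.59 and 12.7 TPM in KO, with no overlap, a log2 fold change of -0.79 ± 0.16 (adjusted p = 0.0137, edgeR). Its footprints were 15.6, 13.6, 16.9 and 16.4 TPM in WT and 18.5, 14.4 and 14.4 TPM in KO, and were level (0.00 ± 0.09, adjusted p = 0.995, edgeR). The difference between the assays was 0.78 ± 0.20 (adjusted p = 0.0961, edgeR) and missed the threshold. Without KO RNA library 2 the RNA value was -0.64 (adjusted p = 0.0513). Endothelial markers, which could carry Klf2, had summed RNA levels of 82.5 to 96.2 TPM in KO and 77.6 to 120 TPM in WT. Of these markers 0 of 10 were called in RNA and 3 of 10 were lower in footprints. Microglia markers were lower in KO RNA, as given above (6 of 9 called). The part of any cell type in the Klf2 value was not tested.

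The other KLF genes did not pass. Klf4, a factor of growth arrest and pluripotency, had 17.7 to 20.7 TPM of RNA in WT and 14 to 17.7 TPM in KO (-0.25 ± 0.09, adjusted p = 0.125, edgeR). Klf6 and the TGF-beta-induced Klf10 were at 0.04 and 0.02 in RNA. Klf10 footprints were 58.4 to 65.7 TPM in WT and 62.8 to 80 TPM in KO (0.17 ± 0.07, adjusted p = 0.105, edgeR), passing by DESeq2 and without KO footprint library 2, and Klf6 footprints were at 0.03.

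Ier2, a nuclear protein gene of the immediate early response family, had the smallest adjusted p of the 38 in footprints. Ier2 footprints (chr8:84661331-84662852) were 122, 122, 123 and 119 TPM in WT and 102, 100 and 95.2 TPM in KO, and the gap between groups exceeded the range within either. The log2 fold change was -0.30 ± 0.04 (adjusted p = 0.000580, edgeR), a call kept in all 18 alternatives (adjusted p up to 0.0104). Ier2 RNA was 41.8, 59.3, 44.3 and 45.9 TPM in WT and 40.6, 34.6 and 44.3 TPM in KO and overlapped (-0.24 ± 0.12, adjusted p = 0.261, edgeR), and the difference between the assays was -0.07 ± 0.12. The related Ier3, an apoptosis regulator, and Ier5, a modulator of heat shock factor, were at -0.19 and -0.07 in RNA and at -0.04 and 0.09 in footprints, without a call.

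Among the growth arrest genes, Btg2, an antiproliferative partner of the CCR4-NOT deadenylase, had footprints (chr1:134074865-134079155) of 240, 253, 243 and 221 TPM in WT and 200, 207 and 226 TPM in KO. Although KO library 3 overlapped WT library 4, the fall passed, at -0.19 ± 0.06 (log2, adjusted p = 0.0374, edgeR). Omitting KO footprint library 1 or 2, or WT footprint library 1, 2 or 3, ended the call (adjusted p 0.0679 to 0.140). Btg2 RNA was 215, 228, 209 and 194 TPM in WT and 180, 190 and 218 TPM in KO (-0.10 ± 0.08, adjusted p = 0.562, edgeR). Gadd45b and Gadd45g, stress proteins linked to DNA demethylation, lay above 0 in RNA (0.17 and 0.15) and footprints (0.20 and 0.04) without passing.

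Of the 3 MAP kinase phosphatases, which end MAP kinase signalling and are induced by it, 1 fell in RNA and 1 rose in footprints. Dusp1 RNA (chr17:26505591-26508472) was 294, 244, 260 and 274 TPM in WT and 231, 183 and 225 TPM in KO, with no overlap. The fall was -0.33 ± 0.07 (log2, adjusted p = 0.0203, edgeR), and the omission of KO RNA library 2, WT RNA library 1 or WT RNA library 4 ended the call (adjusted p = 0.0831, 0.0545 and 0.0530), as did limma (0.0532 and 0.0552 with the pseudocounts tried). Dusp1 footprints were 119, 118, 131 and 116 TPM in WT and 129, 111 and 111 TPM in KO (-0.06 ± 0.05, adjusted p = 0.558, edgeR), and the difference between the assays was 0.27 ± 0.10 (adjusted p = 0.261, edgeR). Dusp5, a nuclear phosphatase specific for ERK, rose in footprints (chr19:53529145-53541809), from 15.7, 16.3, 15.4 and 14.7 TPM in WT to 17.9, 17.5 and 18.7 TPM in KO. Every KO library was above every WT library, and the log2 fold change was 0.21 ± 0.05 (adjusted p = 0.0151, edgeR; 0.0641 without KO footprint library 3 and 0.0671 by DESeq2). Dusp5 RNA was 25.8 to 32 TPM in WT and 25.9 to 32.6 TPM in KO (-0.02 ± 0.10), and Dusp6, the cytoplasmic ERK phosphatase, was at 0.01 in RNA and -0.02 in footprints.

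Trib1, a pseudokinase that targets proteins for degradation, had footprints (chr15:59648654-59657099) of 33.4, 35.4, 33.4 and 31.5 TPM in WT and 46.4, 34.2 and 43.1 TPM in KO. KO library 2 lay within the WT range and the other KO libraries above it, for a log2 fold change of 0.30 ± 0.08 (adjusted p = 0.0245, edgeR). Omitting KO footprint library 1, KO footprint library 3 or WT footprint library 4 ended that call (adjusted p = 0.0930, 0.0680 and 0.0693), and Trib1 RNA was at 0.11 ± 0.12. The CREB-coactivator kinase Sik1 was at -0.15 in RNA and 0.18 in footprints and did not pass in either. Plk2 and Plk3, polo-like kinases of which Plk2 weakens synapses during prolonged activity, were at 0.09 and 0.02 in RNA and 0.12 and 0.07 in footprints.

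Ptgs2, which encodes the inducible cyclooxygenase COX-2 of excitatory neurons, was the only member called in both assays. Its RNA (chr1:150100031-150108234) was 35, 35.6, 32.5 and 33.9 TPM in WT and 29.9, 22.9 and 27.4 TPM in KO, a log2 fold change of -0.35 ± 0.08 (adjusted p = 0.0203, edgeR; 0.0726 without KO RNA library 2). Its footprints were 59.8, 59.9, 58.9 and 53.8 TPM in WT and 47.4, 43.2 and 51.7 TPM in KO, a change of -0.30 ± 0.06 (adjusted p = 0.00575, edgeR), a call kept in all 18 alternatives. The groups did not overlap in either assay, and the difference between the assays was 0.05 ± 0.11. Cyr61 (CCN1), a secreted matrix protein of vessels, fibroblasts and astrocytes that is driven by SRF and YAP, had footprints (chr3:145646971-145649985) of 259, 270, 275 and 249 TPM in WT and 225, 211 and 235 TPM in KO, again without overlap. The log2 fold change was -0.24 ± 0.05 (adjusted p = 0.00488, edgeR), a call kept in all 18 alternatives, while its RNA, at 92.2 to 101 TPM in WT and 84.3 to 100 TPM in KO, was at -0.08 ± 0.07. Per1, a clock gene that CREB also induces, was at 0.08 in RNA and 0.17 in footprints (adjusted p = 0.116, edgeR), and its footprints passed by DESeq2 and with the length trend removed.

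Markers of cell types are given here beside the footprints of Cyr61, Ier2, Btg2 and Ptgs2. Summed fibroblast markers were 111 to 119 TPM in KO and 142 to 165 TPM in WT footprints (4 of 5 lower), and summed endothelial markers overlapped, at 41.8 to 52.8 TPM and 43.3 to 61.9 TPM (3 of 10 lower). Microglia markers were lower as given above. Summed astrocyte markers were also lower in KO footprints (3411 to 3654 TPM in KO and 3681 to 3927 TPM in WT), with 1 of 6 higher and 2 of 6 lower. Of the markers of mural cells, oligodendrocytes and oligodendrocyte precursors, 2 of 4, 2 of 5 and 2 of 4 were lower, and their sums overlapped. Of 8 neuron markers 1 rose and 1 fell, with a median of -0.03. Summed CA1 markers were lower in KO footprints (215 to 226 TPM against 249 to 257 TPM), with 2 of 4 called. Dentate granule sums were lower, and cortical and thalamic markers higher, as given above. The part of these cell types in the members' values was not tested.

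Footprints per RNA differed widely among the members. The ratio of footprint TPM to RNA TPM in the same lysate, taken by replicate number, had a WT median of 1.05 against 0.785 over all genes, and was over 1 for 20 members (52.6%, against 33.5%). Egr1 was highest at 3.77 ± 0.40 (SD, n = 4; 97.8th percentile of all genes), followed by Cyr61 at 2.71 ± 0.143 and Ier2 at 2.59 ± 0.376, which did not differ beyond their spread. Jund, the most abundant RNA, was lowest at 0.212 ± 0.0161 (3.82nd percentile), below Plk3 at 0.337 ± 0.0305 and Klf4 at 0.357 ± 0.0337. Families were not uniform, since the ratio was 1.36 ± 0.0913 for Fos and 1.87 ± 0.26 for Jun, but 0.719 ± 0.0425 for Junb. Members were shorter than most genes, with a median relative length of 0.803 times that of all genes.

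No member passed the interaction test of whether this ratio differed between genotypes. By this test of translational efficiency, which asks whether the genotype effect differs between assays, 0 of 38 members were called by edgeR, with 6 (15.8%, against 10.8% of all genes) under 0.05 unadjusted, 1 called by DESeq2 (Jund) and 0 by limma. Over all genes it called 0.0208% lower and 0.0139% higher. The value was above 0 for 27 of 38 members (71.1%, against 47% of all genes), with a median of 0.13. Jund had the smallest p, with ratios of 0.194 to 0.227 in WT and 0.258 to 0.295 in KO (0.35 ± 0.08, adjusted p = 0.0802, edgeR). Klf2 had ratios of 0.676 to 1.11 in WT and 1.13 to 1.98 in KO. Ratios of KO lay above every WT ratio for Jund, Klf2, Sik1, Dusp5 and Klf10 (5 members, 13.2%, against 6.58% of all genes) and below for Btg2 and Cyr61 (2 members, 5.26%, against 7.01%). Without the lysate of KO library 3, Jund, Egr4, Klf2 and Egr1 were called higher, with 68 genes (0.472%) called in all.

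**Figure D3:**
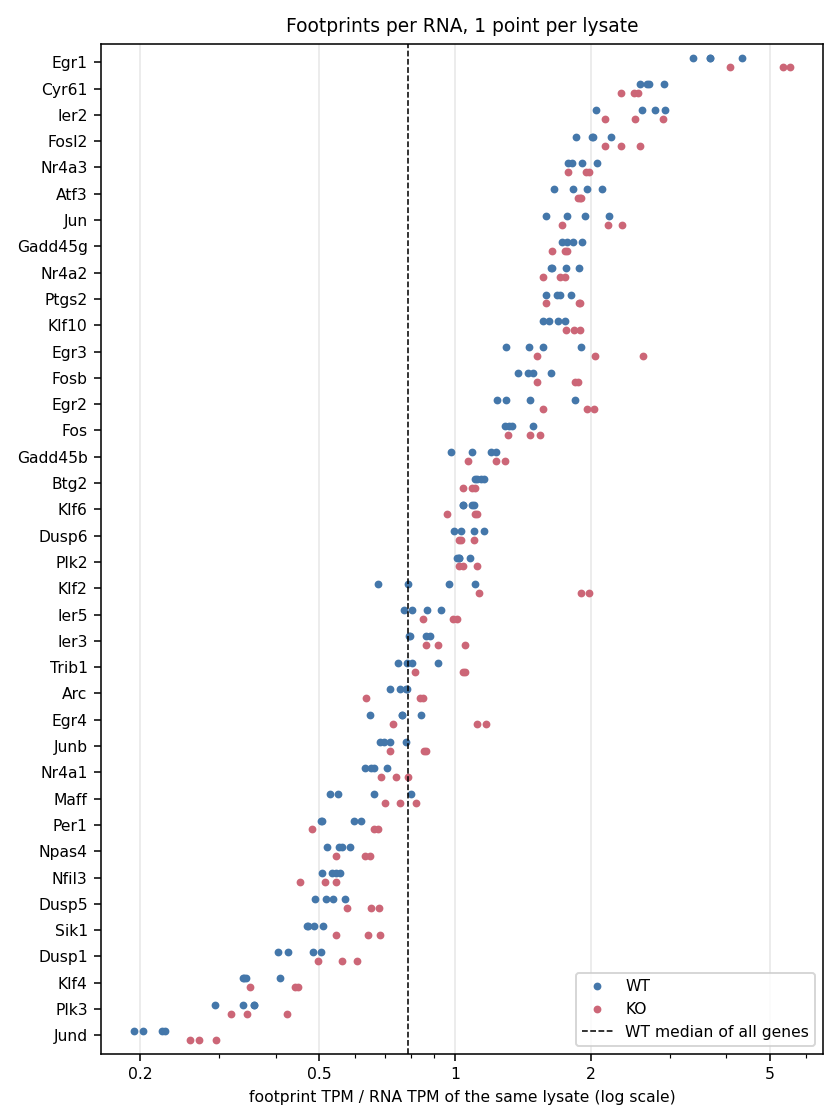
Ratio of footprint TPM to RNA TPM for each gene, on a log axis, with 1 point per lysate (blue WT, 4; red KO, 3) and the WT median of all genes, 0.785, as a dashed line. Genes are ordered by the WT mean, from Egr1 at 3.77 down to Jund at 0.212, and the KO points of Jund and Klf2 lie to the right of all their WT points.

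The members varied together between libraries of the same genotype, most of all in KO RNA. KO RNA library 2 had the lowest KO value for 34 of 38 members and lay a median of 0.18 below its own group's mean on the log2 scale, whereas over all genes that library's median departure was -0.02. KO RNA library 3 had the highest KO value for 28 of 38 members. The exceptions to the low values of library 2 included Arc, whose lowest KO value was in library 1. The summed level of the 38 genes was 4265, 3758 and 4565 TPM in the KO RNA libraries and 4434 to 4782 TPM in WT. The median SD of log2 TPM was 0.181 over members against 0.112 over all genes in KO RNA, with 36 of 38 members above that all-gene median, and 0.105 against 0.107 in WT RNA. In footprints it was 0.127 against 0.070 in KO and 0.074 against 0.065 in WT. KO footprint library 1 was highest for 27 of 38 members and KO footprint library 2 lowest for 27, and WT footprint library 4 was lowest of its group for 26.

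**Figure D4:**
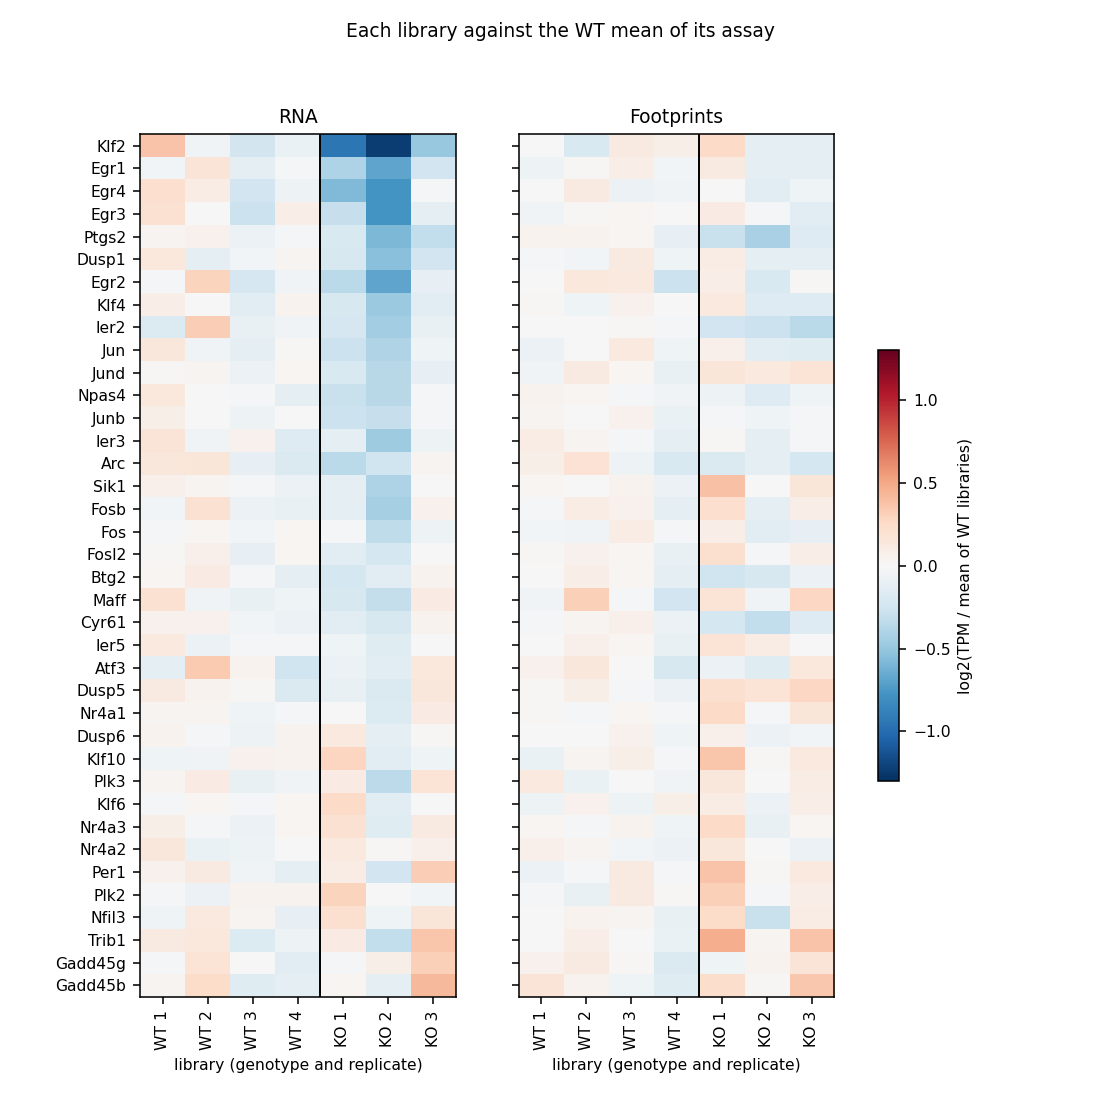
Heat map of log2 TPM minus the mean log2 TPM of the WT libraries for each gene (vertical, ordered by RNA fold change) in each library (horizontal), RNA left and footprints right, with blue below and red above the WT mean. KO RNA library 2, lowest of its group for 34 genes, is blue for most genes, and KO footprint library 1, highest of its group for 27 genes, is red for most.

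Genes upstream and downstream of this response were read from the same fits. Of 33 genes of the CREB, SRF, MEF2 and MAP kinase pathways that induce the members, 5 rose and 0 fell in footprints, and 1 rose and 1 fell in RNA (medians 0.04 and -0.06). Over all genes 8.15% rose and 10.4% fell in footprints, and 2.11% rose and 2.77% fell in RNA. The MEF2 genes Mef2c (0.21 ± 0.05, adjusted p = 0.00865, edgeR), Mef2a (0.15) and Mef2d (0.13) and the ERK1 gene Mapk3 (0.13) rose in footprints. Mef2c also rose in RNA (0.35 ± 0.07, adjusted p = 0.0137, edgeR), while the SRF partner Elk1 fell (-0.33 ± 0.08, adjusted p = 0.0233, edgeR), and the coactivator genes Ep300 (-0.21) and Crtc1 (-0.26) did not pass. The footprint count was 2 without KO footprint library 3, and 3 without KO footprint library 2 or WT footprint library 1, 3 or 4. Over all genes, 12.5% to 16.2% were called under these omissions.

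Of 21 genes induced later by activity, many of them secreted or membrane proteins, 9 fell and 3 rose in footprints, and 2 fell and 0 rose in RNA (medians -0.10 and -0.01), against shares over all genes of 10.4% lower and 8.15% higher in footprints and 2.77% lower and 2.11% higher in RNA. Vgf, a neuropeptide precursor gene and CREB target, fell from 348 ± 12.6 TPM (SD, n = 4) to 271 ± 12.4 TPM (n = 3) in footprints and from 202 ± 16.7 to 156 ± 18.8 TPM in RNA, by 0.37 on the log2 scale in each (adjusted p = 0.000580 and 0.0170, edgeR). The sorting receptor gene Sorcs3 (-0.25), the prohormone convertase gene Pcsk1 (-0.23) and the protocadherin gene Pcdh8 (-0.29) also fell in footprints, and Pcdh8 fell in RNA (-0.34). The RNA count was 0 when KO RNA library 2 was omitted, and 1 when KO RNA library 1 or WT RNA library 1 or 4 was. Over all genes, 1.71% to 2.3% were called under these omissions.

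Of 11 genes for proteins that bind AU-rich elements, the elements that shorten the life of many immediate-early mRNAs, 2 fell in RNA (2.77% of all genes) and 4 rose in footprints (8.15% of all genes), with medians of 0.02 and 0.09. The mRNA-destabilising genes Zfp36 and Zfp36l1, themselves immediate-early genes, fell in RNA by 0.41 ± 0.08 and 0.54 ± 0.13 (adjusted p = 0.00983 and 0.0280, edgeR). Khsrp (0.13), Tia1 (0.14), Elavl4 (0.11) and Elavl1 (0.11) rose in footprints, a count that ranged from 0 to 2 without KO footprint library 1 or 3 or any 1 WT footprint library. The RNA count was 1 when KO RNA library 1 or 2, or WT RNA library 1 or 4, was omitted. Under the omissions named, 12.5% to 16% of all genes were called in footprints and 1.71% to 2.3% in RNA. In the interaction test 0 genes of the 3 lists passed by edgeR, with 4 upstream, 3 later and 4 AU-rich element binding genes under 0.05 unadjusted and 1 of each list called by DESeq2.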

How the data were processed

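Cytoplasmic RNA-seq and ribosome profiling of hippocampal slices gave 14 libraries. Per the submitters' processing notes, cutadapt 1.7.1, Trimmomatic 0.32, Bowtie2 2.1.0, TopHat2 2.0.9, SAMtools 0.0.19, bedtools and RSEM 1.2.11 were used with mm10. The authors deposited estimated counts and TPM per gene. Both have a floor near 1 TPM, and low counts vary less than counting would give (variance over mean 0.158 to 0.406), so no counting intervals are given and p-values may be too small. Within groups, replicates 1 and 2 against 3 and 4 hold only 3.74% (footprints) and 2% (RNA) of the variance, against at least 17.6% for each other direction. The labels mention no adjustment.

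Rounded estimated counts of all genes were tested with edgeR 4.0.16 in R 4.3.3 (filterByExpr with a minimum count of 10, TMM scaling, robust quasi-likelihood test, threshold of 0.05 after Benjamini-Hochberg adjustment), per assay, and as the interaction of assay and genotype for footprints relative to RNA, where the 14 libraries entered as independent. Each SE was derived from the fold change and its F statistic. The script was tested on simulated data. Alternatives used DESeq2 1.42.0, limma 3.58.1 on log2(TPM + 1) and log2(TPM + 0.1), other scalings and filters, a replicate block, and the omission of each library. Libraries were grouped by title. Named in full were members with an adjusted p under 0.05 and Fos, Fosb, Junb, Egr1, Arc, Npas4, Nr4a1, Dusp1, Btg2 and Klf2, and of each pathway list up to 4 genes with the smallest p per assay. The members and lists were chosen with earlier results of these data known.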

Additional observations from a re-analysis of the deposited data

Results flagged for a closer look

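Of the 76 groups of 4 WT libraries tested for a library far from the rest, 1 stood out. Ptgs2 footprints were 53.8 TPM in WT library 4, whereas the other 3 WT libraries lay between 58.9 and 59.9 TPM. About 1 in 20 such groups would be singled out by chance. All 3 KO libraries were below this value (43.2 to 51.7 TPM), and the fall of Ptgs2 footprints kept its call without WT library 4.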

How the results depend on the processing

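Over 37 results of single members and their 666 alternatives, 612 kept direction and side of the threshold, 34 lost a call, 9 gained one and 11 changed sign. None of the sign changes touched a call: Klf2 footprints were at -0.01 with genes of at least 5 TPM and with the length trend removed, and, with 1 library left out in turn, from -0.13 (without KO library 1; -0.05 without WT library 2) to 0.06. Over such omissions Fosb footprints ranged from -0.01 (without KO library 1) to 0.14, Nr4a1 RNA from -0.09 to 0.06 (without KO library 2; 0.0023 and 0.01 without WT library 1 and 2), and the Arc difference between assays from -0.09 to 0.13 (without KO library 3; 0.02 by limma with either pseudocount). Members called ranged from 4 to 10 in footprints, 0 to 12 in RNA and 0 to 4 in the difference between assays when 1 library or lysate was left out. The shares of all genes called then ranged from 12.5% to 16.2%, from 1.71% to 6.26% and from 0.0138% to 0.472%. In RNA 3 members were called by limma with either pseudocount. In the difference between assays 1 (Jund) was called by DESeq2 and 1 (Jund) with genes of at least 5 TPM. DESeq2 gave no adjusted p for Klf2 RNA. The members' median ratio of footprints to RNA was 1.34 times that of all genes in TPM and 1.33 times in counts per library total. Replicate numbers are shared between genotypes, but same-numbered libraries did not deviate together (correlations of -0.50 to 0.10 in footprints and -0.34 to -0.03 in RNA). With the replicate number as a block, 5 members were called in footprints (0 higher, 5 lower, Arc among them; Dusp5 and Trib1 had adjusted p of 0.107 and 0.0904), 3 in RNA (Ptgs2 and Jund at 0.0579 and 0.105) and 0 in the difference (0 also with a term for each lysate), and over all genes 429 higher and 875 lower in footprints and 73 and 131 in RNA. With the 2 sets of replicates as a term, chosen after seeing the data, 6, 4 and 0 members were called, with 362 genes in RNA against 678 without it. With all libraries in one fit 1146 genes were called in RNA. The difference between assays called 17 to 89 genes with the length trend removed, genes of at least 5 TPM, limma or DESeq2, against 5. The cause of these changes was not tested. Upstream genes called in footprints were 0 under the block and 2 with replicate sets, and AU-rich element binding genes 0 under both and 1 with all libraries in one fit. With 3 against 4 libraries, log2 changes of about the size of the members' SE cannot be told from 0. Larger ones also missed the threshold, as Jun RNA did at -0.23 ± 0.08 (adjusted p = 0.0977, edgeR). The simulated data had 1 fixed spread for all genes, not estimated from these libraries, and 200 changed genes. In the real footprints 2677 genes were called. Simulated log2 changes of 0.25 were recovered for 8% of genes in footprints and 24% in RNA. In the difference between assays it was 6%, and 46% for changes of 0.5. These shares do not carry over to the real libraries, where footprint changes as small as those of Btg2 (-0.19) and Dusp5 (0.21) were called. A member without a call is still not shown to be unchanged, as the Jun value shows.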
